A study of Mus musculus with 8 samples.

Results

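The Cyp4a genes encode microsomal cytochrome P450 enzymes that hydroxylate fatty acids at their terminal carbon (omega-hydroxylation). They were chosen by gene symbol from the deposited expression table: Cyp4a10, Cyp4a14, Cyp4a31, Cyp4a32, Cyp4a12a and Cyp4a12b, 6 genes of 55487. The data are RNA-seq of liver from male wild-type C57BL/6N mice in 8 libraries. Control animals ate normal chow, drank tap water and were given corn oil by weekly intraperitoneal injection (ND + oil, 3 libraries). A western diet, which was a high-fat diet with 23.1 g/L fructose and 18.9 g/L glucose in the drinking water, was given with oil (WD + oil, 2 libraries) or with carbon tetrachloride, a hepatotoxin, in place of the oil injection (WD + CCl4, 1 library). Carbon tetrachloride was also given on the normal diet (ND + CCl4, 2 libraries). Age, dose and duration of treatment, and whether libraries came from separate animals, are not given in the sources used here, so each p-value is set against a spread between libraries that may be technical.

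In rodent liver, omega-hydroxylation is a minor route of fatty acid oxidation that gains weight when fatty acids are in excess. The omega-hydroxy acid is oxidized by alcohol and aldehyde dehydrogenases to a dicarboxylic acid, which peroxisomes then shorten. Cyp4a10 and Cyp4a14 are textbook targets of the fatty acid receptor PPAR-alpha, whereas Cyp4a12a is a male-predominant gene that depends on growth hormone and androgen and is known as an arachidonic acid omega-hydroxylase making the vasoactive lipid 20-HETE.

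All 6 genes lie in 1 cluster on chromosome 4 of the mouse genome build GRCm38, and all are annotated as protein coding in GENCODE M21. In order they are Cyp4a12a at chr4:115299046-115332815, Cyp4a12b at chr4:115411624-115439034, Cyp4a14 at chr4:115486200-115496142, Cyp4a10 at chr4:115518264-115533649, Cyp4a31 at chr4:115563649-115579015 and Cyp4a32 at chr4:115600969-115621602. Cyp4a14 is on the minus strand and the other members are on the plus strand. Cyp4a10 has 13 annotated exons and each other member has 12. The neighbours Cyp4a29, Cyp4a30b and Cyp4x1 were listed at 0 in all 8 libraries, while Cyp4b1, next to Cyp4a32, was detected in each.

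**Figure D1:**
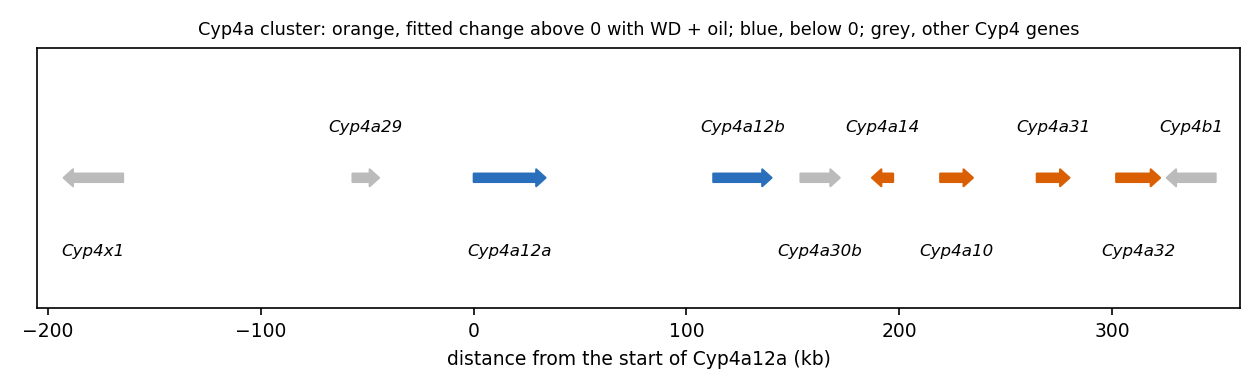
Map of the Cyp4a cluster, drawn to scale as distance in kb from the start of Cyp4a12a, with arrows pointing in the direction of transcription. Members with a fitted change above 0 in WD + oil against ND + oil are orange, those below 0 are blue and other Cyp4 genes are grey; the 2 blue genes lie together at one side of the 4 orange ones.

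The members differ in how far their sequences, and so their measured levels, can be told apart. Over the coding sequence Cyp4a12a and Cyp4a12b were 98.5% identical, with 23 substitutions. Cyp4a10 was 97.2% identical to Cyp4a32 and 96.6% identical to Cyp4a31. Cyp4a14 stood apart, with 75.2% to 75.9% identity to the others. The stretch of 63 coding bases around the codon of the heme-binding cysteine, the residue that holds the iron of every P450, is shown because it is a conserved part of P450 enzymes and still separates 3 sequence classes. Capitals mark bases that differ from Cyp4a10, all letters are from the GENCODE M21 transcripts, and each stretch reads 5′ to 3′.
Cyp4a10: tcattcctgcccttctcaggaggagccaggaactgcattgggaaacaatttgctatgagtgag
Cyp4a31: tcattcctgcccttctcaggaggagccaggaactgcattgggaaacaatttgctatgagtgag
Cyp4a32: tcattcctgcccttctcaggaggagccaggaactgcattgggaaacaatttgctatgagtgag
Cyp4a14: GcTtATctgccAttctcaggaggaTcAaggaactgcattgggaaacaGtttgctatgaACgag
Cyp4a12a: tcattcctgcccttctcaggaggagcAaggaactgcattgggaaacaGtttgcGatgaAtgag
Cyp4a12b: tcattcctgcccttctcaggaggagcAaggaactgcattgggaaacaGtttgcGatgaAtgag
Cyp4a31 and Cyp4a32 carried no difference from Cyp4a10 here, the Cyp4a12 copies carried 4, and Cyp4a14 carried 10. Of all 50-base windows of the Cyp4a14 transcript, 0% occurred in another member. The share was 20.1% for Cyp4a31, 30.5% for Cyp4a10, 46.8% for Cyp4a32, 48.9% for Cyp4a12a and 49.4% for Cyp4a12b. Fragments from those windows could be assigned to more than 1 gene, so the split between Cyp4a12a and Cyp4a12b, and among Cyp4a10, Cyp4a31 and Cyp4a32, is uncertain, and sums over the copies are given beside the single genes.

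Of the members, Cyp4a32 alone had an entry in the RefSeq promoter table (GRCm38.p6, 250 bases before to 50 after the start). Its promoter, chr4:115600688-115600987 on the plus strand, was searched on both strands for the direct repeat of AGGTCA with 1 base between the copies, the kind of element PPAR-alpha binds with its partner RXR. It held 1 match with 3 mismatches in the fixed bases, which was the limit allowed. Of the 32851 promoters of the table, 24.6% held such a match. A single exact AGGTCA, which overlaps the direct repeat and was in 16.3% of promoters, and the element TTCNNNGAA of the growth hormone effector STAT5, in 8.3% of promoters, were not in this window.

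The levels below are FPKM, fragments normalized to transcript length and to mapped fragments, which allows levels to be compared between genes. Across libraries the FPKM values summed to between 514832 and 612747, between 12531 and 14843 genes stood above 0, and the counts behind the values were not analysed here, so the depth is unknown. The major urinary protein genes, which are abundant male liver transcripts, took 16.9% to 32.5% of the summed FPKM in ND + oil and 2.80% to 10.04% in the other libraries; their part in the results below was not tested, and fits without them are given with the alternatives. The summed FPKM of 8 hepatocyte markers was 34600 to 43690 in ND + oil, 31090 to 38760 in WD + oil, 51580 to 58370 in ND + CCl4 and 36180 in WD + CCl4. Alb was the largest part of this sum, with means of 20270, 19750, 35080 and 20850 FPKM in the same order. In ND + CCl4 against ND + oil 4 of the 8 markers had an estimate above 0. Their median log2 fold change was 0.24, beside 0.26 over all tested genes. All 5 kidney markers were listed at 0 in every library, and kidney is another organ with high Cyp4a expression.

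In ND + oil the Cyp4a12 copies held most of the Cyp4a transcript level, and in each other group Cyp4a10 and Cyp4a14 stood higher than in ND + oil. Cyp4a14 was at 6.85, 3.95 and 0.718 FPKM in the 3 ND + oil libraries, 88.8 and 44.1 in WD + oil, 51.1 and 63.7 in ND + CCl4, and 11.4 in WD + CCl4. All 5 libraries outside ND + oil lay above its 3 control libraries, with the WD + CCl4 library nearest to them. Control library 3 was the lowest of all 8.

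Cyp4a10 was at 14.5, 15.6 and 3.34 FPKM in ND + oil, 91.5 and 47.9 in WD + oil, 77.5 and 98.8 in ND + CCl4, and 43.3 in WD + CCl4. Again the groups did not overlap with the controls, and control library 3 was the lowest. The WD + CCl4 library lay just below the lower WD + oil library.

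Cyp4a32, a close copy of Cyp4a10, was at 4.43, 4.78 and 5.66 FPKM in ND + oil, 14.8 and 11.8 in WD + oil, 16.7 and 13.1 in ND + CCl4, and 11.6 in WD + CCl4. Relative to their mean, its control libraries were closer together than those of any other member. Cyp4a31, the third of these copies and the lowest member in each group other than ND + CCl4, was at 1.40, 0.732 and 0.530 FPKM in ND + oil, 6.54 and 3.29 in WD + oil, 21.96 and 5.83 in ND + CCl4, and 4.90 in WD + CCl4. Both genes were above the controls in all 5 other libraries, and the high Cyp4a31 value came from ND + CCl4 library 1.

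The Cyp4a12 copies had the opposite order. Cyp4a12a was at 73.1, 104 and 68.5 FPKM in ND + oil, 50.3 and 39.3 in WD + oil, 15.01 and 44.8 in ND + CCl4, and 44.6 in WD + CCl4, so all 5 other libraries lay below the controls. Cyp4a12b was at 25.1, 32.7 and 21.6 FPKM in ND + oil, 23.6 and 20.1 in WD + oil, 6.23 and 18.4 in ND + CCl4, and 21.5 in WD + CCl4. It overlapped with the controls in WD + oil, and ND + CCl4 library 1 was the lowest for both copies.

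**Figure D2:**
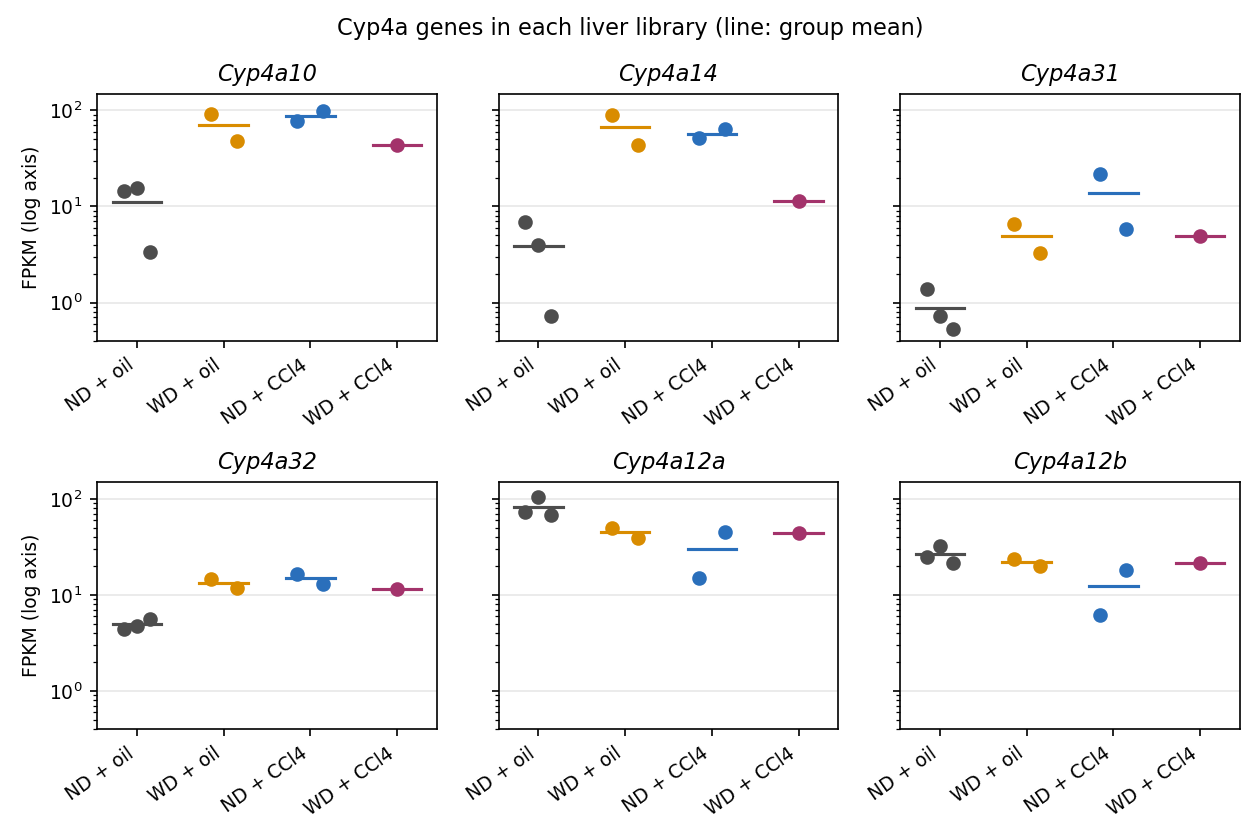
FPKM (log axis) of the 6 Cyp4a genes in each library by group; points are libraries and lines are group means (ND + oil, n = 3; WD + oil, n = 2; ND + CCl4, n = 2; WD + CCl4, n = 1). Cyp4a10, Cyp4a14, Cyp4a31 and Cyp4a32 are above all controls in the 5 other libraries and Cyp4a12a is below them, and Cyp4a14 is 11.4 FPKM in WD + CCl4 against 44.1 or more in WD + oil and ND + CCl4.

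Non-overlap is common in groups this small. Of the 11514 genes with at least 1 FPKM in at least 2 libraries, 45.9% did not overlap between WD + oil and ND + oil, 45.6% between ND + CCl4 and ND + oil, and 64.9% between WD + CCl4 and ND + oil. All 5 other libraries lay on one side of the controls for 22.8% of genes, and for 5 of the 6 members. All 6 members passed the filter on low values, but Cyp4a31 did so only through the groups where it was high, since 1 of its 3 control libraries reached 1 FPKM. Its estimates are therefore given as values and its call supports nothing beyond them.

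By group mean, the order of levels in ND + oil was Cyp4a12a (82.0 ± 19.5 FPKM, SD, n = 3), Cyp4a12b (26.5 ± 5.67), Cyp4a10 (11.1 ± 6.78), Cyp4a32 (4.95 ± 0.634), Cyp4a14 (3.84 ± 3.07) and Cyp4a31 (0.887 ± 0.455). Cyp4a10, Cyp4a32 and Cyp4a14 were not separated beyond their spread, whereas both Cyp4a12 copies were above every other member in each control library. In WD + oil (SD, n = 2) Cyp4a10 at 69.7 ± 30.8 and Cyp4a14 at 66.4 ± 31.6 FPKM led, Cyp4a12a followed at 44.8 ± 7.81, and the 3 overlapped. In ND + CCl4 Cyp4a10 at 88.2 ± 15.02 and Cyp4a14 at 57.4 ± 8.89 FPKM were above Cyp4a12a at 29.9 ± 21.1 with no overlap. In the WD + CCl4 library Cyp4a12a at 44.6 and Cyp4a10 at 43.3 FPKM were close, and Cyp4a14, at 11.4, was below Cyp4a12b and near Cyp4a32.

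Summed over the 6 genes, the level was 125, 162 and 100.3 FPKM in ND + oil, 276 and 167 in WD + oil, 189 and 245 in ND + CCl4, and 137 in WD + CCl4. The sum in the WD + CCl4 library lay inside the control range. The Cyp4a12 copies held 78.3%, 84.5% and 89.8% of it in ND + oil, 26.8% and 35.7% in WD + oil, 11.3% and 25.8% in ND + CCl4, and 48.1% in WD + CCl4. Cyp4a14 held 0.716% to 5.46% of the sum in ND + oil, 26.5% to 32.2% in WD + oil and 26.0% to 27.1% in ND + CCl4, and 8.32% in WD + CCl4.

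**Figure D3:**
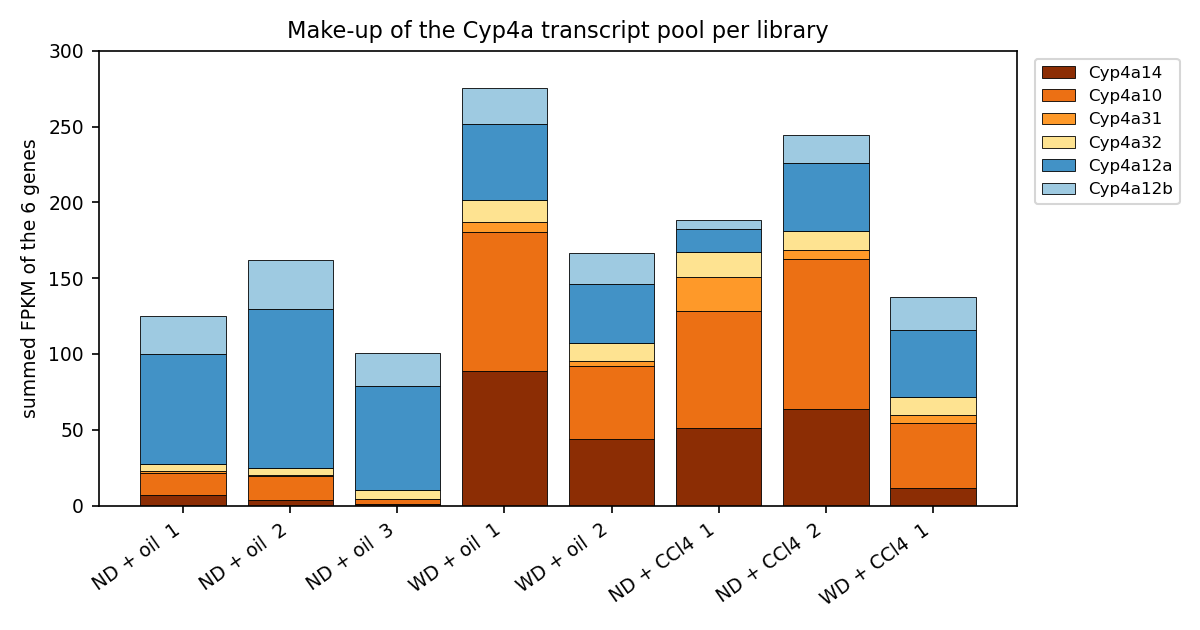
Summed FPKM of the 6 Cyp4a genes in each library, stacked by gene (blue, the Cyp4a12 copies; brown to yellow, the other 4). Blue fills 78.3% to 89.8% of each ND + oil bar and 11.3% to 48.1% of the other bars.

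The sum over copies depends less on the uncertain split but does not remove it. FPKM is normalized to length, and the GENCODE transcripts of Cyp4a10, Cyp4a31 and Cyp4a32 had 2109, 2509 and 1530 bases. A fragment moved among these copies would thus change their sum. The transcripts of Cyp4a12a and Cyp4a12b were closer in length, at 2422 and 2395 bases. How fragments matching several copies were counted is unknown, and the sum does not correct for it. Cyp4a12a and Cyp4a12b together were at 108 ± 25.1 FPKM in ND + oil (SD, n = 3), 66.7 ± 10.3 in WD + oil and 42.2 ± 29.7 in ND + CCl4 (SD, n = 2 each), and 66.0 in WD + CCl4. Cyp4a10, Cyp4a31 and Cyp4a32 together were at 17.0 ± 6.46, 87.9 ± 35.2, 117 ± 1.06 and 59.9 FPKM in the same order. In ND + CCl4 the 2 libraries differed in Cyp4a31 and Cyp4a10 in opposite directions, and this sum was nearly equal in them, at 116 and 118 FPKM.

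The effect of the western diet alone was taken from WD + oil against ND + oil. Cyp4a14 rose by 3.97 ± 0.59 (SE) on the log2(FPKM + 1) scale, Cyp4a10 by 2.70 ± 0.57 and Cyp4a32 by 1.26 ± 0.18 (limma on all genes, Benjamini-Hochberg adjusted p = 0.0193, 0.0427 and 0.0193). Cyp4a31, at 1.62 ± 0.49, did not pass (adjusted p = 0.0999), nor did Cyp4a12a, at -0.84 ± 0.42 (adjusted p = 0.271), or Cyp4a12b, at -0.25 ± 0.38 (adjusted p = 0.733). Thus 3 of 6 members were higher and 0 lower, where 4.41% of all tested genes were called. The members' median was 1.44, beside 0.22 over all tested genes. Among all genes, Cyp4a14 had the 6th highest estimate. With the 3 close copies summed, Cyp4a10 with Cyp4a31 and Cyp4a32 rose by 2.32 (limma adjusted p = 0.0228), and the summed Cyp4a12 copies stood at -0.68 (adjusted p = 0.372). The calls rest on single libraries: the count of 3 became 0 without WD + oil library 1, WD + oil library 2 or ND + oil library 2, and 1 without ND + oil library 1; with no filter on low values it was 0.

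Kupffer cell and macrophage markers moved with this group: their sum over 8 genes was 34.99 to 93.6 FPKM in ND + oil and 293 to 601 in WD + oil, and 6 of the 8 rose. Sums in ND + CCl4 were 86.8 to 263, and 240 in WD + CCl4. In WD + oil 3 of 8 sinusoidal endothelium markers, 3 of 5 erythroid markers and 1 of 8 stellate cell markers rose as well. In bulk tissue fewer cells of a type and less RNA per cell cannot be told apart. Of 5 adipose markers, 4, Adipoq among them, were at 0 in all libraries, and of 5 small intestine markers 4 were at 0. The remaining marker of each rose in WD + oil: Cfd from at most 0.811 FPKM in ND + oil to 18.8 and 23.3, and Fabp2 from 28.1 to 56.4 FPKM to 127 and 150 (limma adjusted p = 0.00127 and 0.0381). Cfd was at 0 in both CCl4 groups and passed the filter only through WD + oil, so its call supports nothing beyond these values. The part of these cells in the Cyp4a results was not tested.

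The effect of CCl4 on the normal diet was taken from ND + CCl4 against ND + oil, a contrast that uses the same 3 control libraries. Cyp4a14 rose by 3.84 ± 0.59, Cyp4a10 by 3.09 ± 0.57, Cyp4a31 by 2.76 ± 0.49 and Cyp4a32 by 1.41 ± 0.18 (limma adjusted p = 0.0286, 0.0460, 0.0417 and 0.0190). Cyp4a12a at -1.59 ± 0.42 and Cyp4a12b at -1.19 ± 0.38 did not pass (limma adjusted p = 0.112 and 0.150). So 4 of 6 members were higher and 0 lower, Cyp4a31 among them with the limit given above, and 1.42% of all tested genes were called. The members' median was 2.09, beside 0.26 over all tested genes. Cyp4a14, Cyp4a10 and Cyp4a31 had the 5th, 10th and 16th highest estimates of 11514. With close copies summed, Cyp4a10 with its copies rose by 2.79 (limma adjusted p = 0.0206) and the Cyp4a12 sum stood at -1.51 (adjusted p = 0.121).

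Here too single libraries decided the calls. The count of 4 became 0 without ND + CCl4 library 1 or ND + oil library 2, 1 without ND + oil library 1, WD + oil library 1 or WD + oil library 2, and 5 without ND + CCl4 library 2; median-of-ratios scaling left 1 and no filter on low values 0. Without ND + CCl4 library 2, Cyp4a12a at -2.35 and Cyp4a12b at -1.91 passed (limma adjusted p = 0.00836 and 0.0103) and Cyp4a10 at 2.92 no longer did (adjusted p = 0.0625), each measured against the remaining library alone. Of the cholangiocyte markers, Spp1, a secreted phosphoprotein, was at 455 FPKM in library 1 and 26.8 in library 2, against 17.3 to 39.1 in ND + oil. The other 5 markers summed to 3.96 and 1.78 FPKM, against 0.369 to 1.26 in ND + oil, and their part was not tested.

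**Figure D4:**
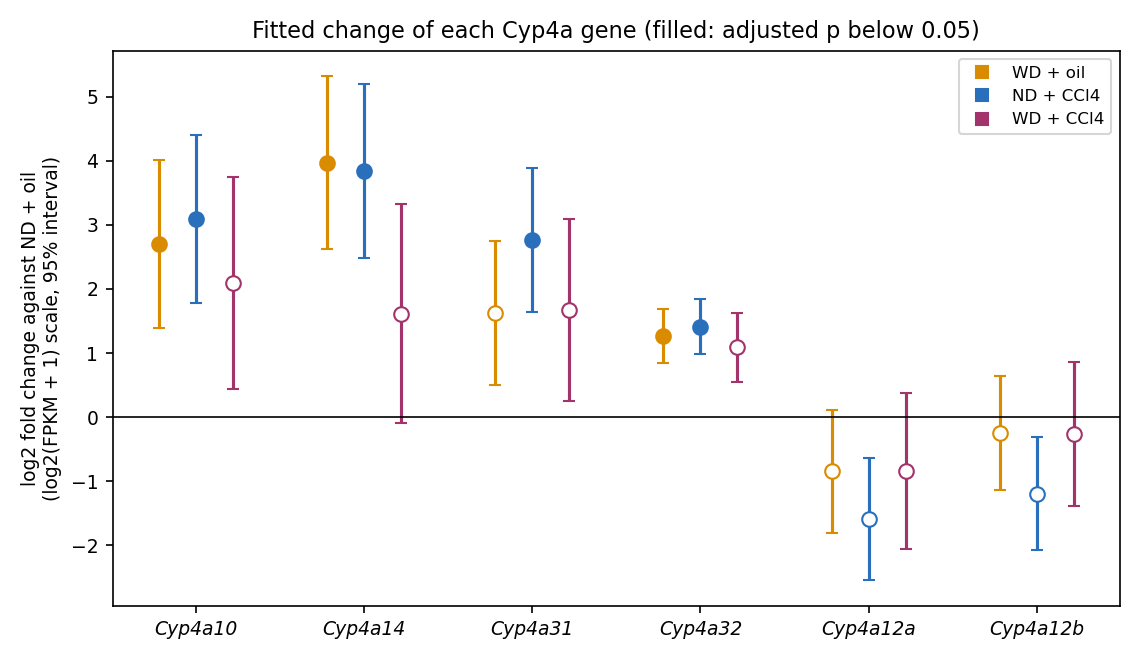
Fitted log2 fold change of each Cyp4a gene against ND + oil with its 95% interval, from limma on log2(FPKM + 1) of all 8 libraries; filled points passed an adjusted p of 0.05. In WD + oil 3 of 6 genes are filled, in ND + CCl4 4 of 6 and in WD + CCl4 0 of 6, and the Cyp4a12 copies are below 0 in each.

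Combined exposure was read from a single WD + CCl4 library, which the fit assumed to vary like the others. Against ND + oil the estimates were 2.096 ± 0.718 for Cyp4a10, 1.62 ± 0.74 for Cyp4a14, 1.67 ± 0.62 for Cyp4a31 and 1.09 ± 0.23 for Cyp4a32. Those of the Cyp4a12 copies were -0.84 ± 0.53 for Cyp4a12a and -0.27 ± 0.49 for Cyp4a12b. By limma 0 of 6 members passed (lowest adjusted p = 0.0871, for Cyp4a32), and 0.929% of all tested genes were called. At an unadjusted p under 0.05 stood 3 members and 15.3% of all tested genes. In this comparison Cyp4a32 passed without either ND + CCl4 library, which gave a count of 1 each time.

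Cyp4a14 was the member in which the combined group stood lowest beside the single exposures. It was lower than in WD + oil by an estimate of -2.36 ± 0.79 and lower than in ND + CCl4 by -2.22 ± 0.79, and neither passed (limma adjusted p = 0.929 and 0.553). The other 5 members differed from WD + oil by between -0.60 and 0.05 and from ND + CCl4 by between -1.09 and 0.92. Their calls were 0 of 6 in both, with 0.0434% and 0.261% of all genes called, and 1 member, Cyp4a14, under an unadjusted p of 0.05 in each, as were 4.19% and 7.1% of all genes. ND + CCl4 against WD + oil gave 0 calls among the members, with 0.617% of all genes called, and 0 members under an unadjusted p of 0.05, with 11.1% of all genes. The interval of that difference for Cyp4a14 ran from -1.61 to 1.35, so changes of over 2-fold either way are not excluded.

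The interaction of diet and CCl4 measures how far the combined level departs from the sum of both single effects. Cyp4a14 had the lowest estimate of all 11514 genes, -6.20 ± 0.98 (95% interval -8.46 to -3.93), and Cyp4a10 the 12th lowest, -3.69 ± 0.95. Neither passed (limma adjusted p = 0.137 and 0.325). Cyp4a31 was at -2.71 and Cyp4a32 at -1.59, and the Cyp4a12 copies were at 1.59 and 1.17. In this contrast 0 of 6 members passed, and 0.0608% of all genes were called. At an unadjusted p under 0.05 stood 4 members and 9.78% of all genes. Without ND + oil library 3 Cyp4a14 passed (limma adjusted p = 0.0483), and without ND + CCl4 library 2 Cyp4a31 passed (adjusted p = 0.0414). A gene that stands high in both single groups and no higher in the combined one gives a low interaction by construction, and the estimate leans on 1 library for the combined exposure.

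Ratios inside a library compare Cyp4a10 and Cyp4a14 with the Cyp4a12 copies. Each is a difference of log2(FPKM + 1) values, so the scaling of the library largely cancels, except at low FPKM. There the added 1 makes a ratio less extreme, as for Cyp4a14 in ND + oil library 3, at 0.718 FPKM. Its FPKM ratio to Cyp4a12a in that library was 0.0105. The log2 ratio of Cyp4a14 to Cyp4a12a was -3.24, -4.41 and -5.34 in ND + oil, 0.81 and 0.16 in WD + oil, 1.70 and 0.50 in ND + CCl4, and -1.88 in WD + CCl4. The ratio of Cyp4a10 to Cyp4a12a was -2.26, -2.67 and -4.00 in ND + oil, 0.85 and 0.28 in WD + oil, 2.30 and 1.12 in ND + CCl4, and -0.04 in WD + CCl4. In all 5 libraries outside ND + oil both ratios were higher than in any control, and Cyp4a14 exceeded Cyp4a12a in 4 of the 5. The mean difference between the 5 libraries and the 3 controls was 4.59 for Cyp4a14 to Cyp4a12a, 3.88 for Cyp4a10 to Cyp4a12a, 4.08 for Cyp4a14 to Cyp4a12b and 3.37 for Cyp4a10 to Cyp4a12b. Each gave an exact two-sided permutation p of 0.0357, and 0.0357 after Benjamini-Hochberg adjustment over the 4 ratios, the smallest value that the 56 arrangements of 3 against 5 libraries can give. With Cyp4a12a this p was fixed by the non-overlap of the single genes given above. With Cyp4a12b, which overlapped with the controls in WD + oil, the ranges of the single genes given above were also enough to fix it. None of the 4 p-values therefore adds support to those levels. Non-overlap of all 5 libraries with the controls held for 22.8% of all tested genes. The 4 ratios also share genes, and the 5 libraries pool different treatments. The ratio of WD + CCl4 was nearest to the controls for all 4.

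Ratios between members with like profiles were also read in each library. Cyp4a14 to Cyp4a10 in FPKM was 0.473, 0.253 and 0.215 in ND + oil, 0.970 and 0.921 in WD + oil, 0.659 and 0.644 in ND + CCl4, and 0.264 in WD + CCl4. Thus in WD + CCl4 Cyp4a14 was as low beside Cyp4a10 as in the controls, although Cyp4a10 itself was not. Between the near-identical copies, Cyp4a12a to Cyp4a12b was 2.92, 3.19 and 3.17 in ND + oil and between 1.95 and 2.43 in the other 5 libraries, with the caveat on shared sequence given above.

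The lists of genes around the enzymes were written with earlier results of these data known. Of 14 other Cyp4 genes 8 were tested, and 1 rose in each of the 3 comparisons with ND + oil: Cyp4f16, a gene of the related Cyp4f subfamily, by 1.38, 1.71 and 1.90 in WD + oil, ND + CCl4 and WD + CCl4 (limma adjusted p = 0.0215, 0.0164 and 0.0276). It was low, at 0.280 to 0.710 FPKM in the controls and 2.67 to 4.67 elsewhere, and was tested only because of the libraries outside ND + oil. Cyp4f14, the most abundant Cyp4f gene and an omega-hydroxylase of leukotriene B4, was at 70.9 ± 1.38 FPKM in ND + oil and 61.9 ± 1.93 in WD + oil. Cyp4b1, which borders Cyp4a32, was at 2.71 ± 0.460 and 5.08 ± 0.526 FPKM (limma adjusted p = 0.0763). Of 4 electron donors to P450 enzymes, limma called 0 in any of the 3 comparisons, and 0, 1 and 1 were under an unadjusted p of 0.05. Of all tested genes limma called 4.41%, 1.42% and 0.929% in these comparisons, and 23.3%, 22.8% and 15.3% were under that unadjusted p. Por, the P450 reductase, was at 34.1 to 92.4 FPKM in ND + oil, 71.8 and 160 in WD + oil, 194 and 147 in ND + CCl4, and 90.3 in WD + CCl4.

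Of 23 genes acting after omega-hydroxylation, 20 were tested. In WD + oil 1 rose, Aldh3a2, the fatty aldehyde dehydrogenase, by 1.32 (limma adjusted p = 0.0272), from 34.7 to 54.9 FPKM in ND + oil to 117 and 120. In ND + CCl4 2 rose: Acot3, a peroxisomal acyl-CoA thioesterase, by 2.11 and Abcd2, a peroxisomal fatty acid transporter, by 1.74 (limma adjusted p = 0.0417 and 0.0413). Both were under 1 FPKM in all 3 controls and passed the filter only through the other groups. In WD + CCl4 limma called 0. Of all tested genes 4.41%, 1.42% and 0.929% were called in WD + oil, ND + CCl4 and WD + CCl4. Under an unadjusted p of 0.05 by limma there were 7, 5 and 1 of the 20 genes. Of all tested genes 23.3%, 22.8% and 15.3% were under it. The medians of the list were 0.39, 0.32 and 0.03, beside 0.22, 0.26 and 0.19 over all tested genes. Ehhadh, the peroxisomal bifunctional enzyme of dicarboxylic acid shortening, was at 32.96 ± 2.05 FPKM in ND + oil and 72.7 ± 16.4 in ND + CCl4 (limma adjusted p = 0.0683). Acot3 was at 0.352 FPKM in WD + CCl4, inside its control range.

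Of 25 other PPAR-alpha targets 24 were tested, and 5 rose in WD + oil, 0 in ND + CCl4 and 0 in WD + CCl4. Of all tested genes limma called 4.41%, 1.42% and 0.929% in these comparisons. The medians of the targets were 0.69, 0.56 and 0.44, beside 0.22, 0.26 and 0.19 over all tested genes. Under an unadjusted p of 0.05 there were 14, 13 and 7 of the 24 targets by limma. Of all tested genes 23.3%, 22.8% and 15.3% were under it. The difference between groups in the counts of targets was not tested. In WD + oil the 4 with the smallest p were Cidea, a lipid droplet protein, Cpt1b, a carnitine palmitoyltransferase, Cd36, a fatty acid transporter, and Mgll, monoacylglycerol lipase. Cidea was at 0 to 0.344 FPKM in ND + oil, 34.9 and 52.4 in WD + oil, 0 in both ND + CCl4 libraries and 1.81 in WD + CCl4. Cidea and Cpt1b were under 1 FPKM in all controls and passed the filter only through other groups. So Cidea was high where Cyp4a14 was high in WD + oil, and listed at 0 in ND + CCl4 where Cyp4a14 was high as well. Of 14 regulators, among them the receptor and its partners, 13 were tested and limma called 0 in any of the 3 comparisons, with 1 under an unadjusted p of 0.05 in each. Ppara itself was at 4.17, 7.72 and 3.36 FPKM in ND + oil, 6.49 and 7.19 in WD + oil, 7.31 and 4.78 in ND + CCl4 and 5.17 in WD + CCl4, all inside the range of the controls.

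Male-biased genes were listed because Cyp4a12a is one. Of 18, all tested, 10 fell in WD + oil, 7 in ND + CCl4 and 5 in WD + CCl4, with 0 higher and medians of -1.60, -0.97 and -1.32. Of all tested genes 0.599%, 0.4% and 0.261% were called lower. Hsd3b5, a steroid dehydrogenase, fell by 4.30, 5.44 and 5.49 as log2 fold change (limma adjusted p = 0.0125, 0.00426 and 0.00915). Cyp2u1, Slco1a1 and Cyp7b1 were among the others that fell. Cyp4a12a, at -0.84, -1.59 and -0.84, was below 0 in each and did not pass. Of 17 female-biased genes 10 were tested, and 2, 3 and 1 rose. Among them were Cyp2b9 in WD + oil and Abcd2 and Cyp3a16 in ND + CCl4. These genes passed the filter only through groups other than ND + oil, so their calls support nothing beyond their values. Of all 11514 tested genes 439, 118 and 77 were called higher. Estimates were above 0 for 5, 7 and 5 of the 10 female-biased genes, and 0 were called lower. Their medians were 0.26, 0.87 and 0.28, beside 0.22, 0.26 and 0.19 over all tested genes. Cyp2a4 rose by 3.02 in ND + CCl4 and Cyp17a1 by 1.84 in WD + oil (limma adjusted p = 0.0403 and 0.0249). In the growth hormone and androgen pathway 14 of 15 genes were tested and limma called 0, with 1, 2 and 1 under an unadjusted p of 0.05 in WD + oil, ND + CCl4 and WD + CCl4. Of all tested genes 23.3%, 22.8% and 15.3% were under it. Ghr, the growth hormone receptor, was at 88.3 ± 4.55 FPKM in ND + oil, 71.9 ± 8.65 in WD + oil, 72.8 ± 17.8 in ND + CCl4 and 54.5 in WD + CCl4, where it was the gene under that p (limma adjusted p = 0.264).

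**Figure D5:**
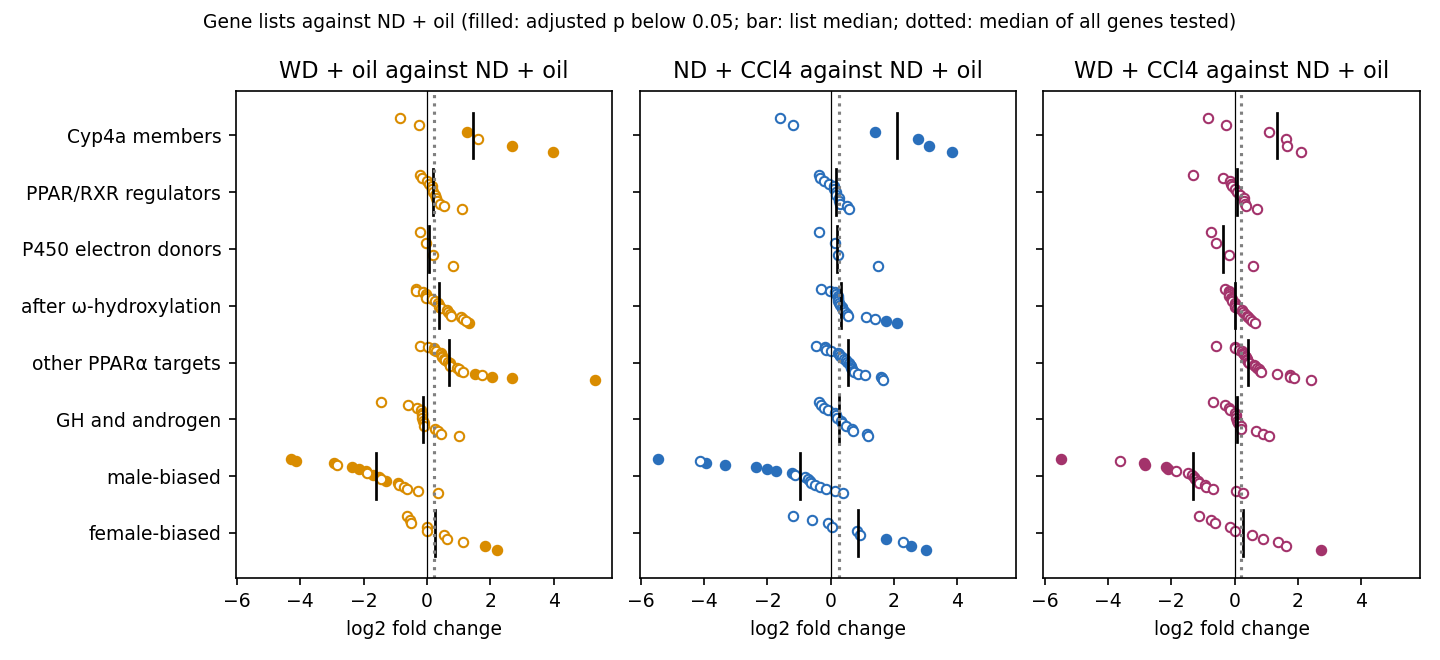
Log2 fold changes against ND + oil of the Cyp4a genes and of the 7 gene lists named on the left, in the 3 other groups; each point is a gene, filled where the adjusted p was below 0.05, the bar is the list median and the dotted line the median of all tested genes. The Cyp4a medians are 1.44, 2.09 and 1.35, the male-biased medians are -1.60, -0.97 and -1.32, and the lists of electron donors, regulators and the growth hormone pathway have no filled point.

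Profiles over the 8 libraries were compared as the root mean square difference of centred log2(FPKM + 1) values, a description in which smaller is more alike. The nearest member to Cyp4a14 was Cyp4a10, at 0.64, beside a median of 1.83 over all tested genes. The 5 nearest non-members were Tceal8 at 0.93, Slc16a5, a monocarboxylate transporter family member, at 0.98, Cyp2b9, a female-biased P450, at 1.10, Ccl5, a chemokine, at 1.14, and Lgals1, galectin 1, at 1.14. Of these, Cyp2b9 shared the low value in WD + CCl4, at 0.359 FPKM, against 3.96 to 9.83 in WD + oil and ND + CCl4 and 0 to 1.61 in the controls. Slc16a5 and Ccl5 were under 1 FPKM in all controls, and Cyp2b9 reached 1 FPKM in only 1 of them. Slc16a5, Ccl5 and Cyp2b9 thus passed the filter only through the other groups, and their likeness to Cyp4a14 is no more than a description. The nearest to Cyp4a12a was its copy Cyp4a12b, at 0.26, beside a median of 0.89. The 5 nearest non-members were Mvd at 0.29, Pmvk at 0.31, Nudt7 at 0.38, Fdps at 0.38 and Npr2 at 0.39. Mvd, Pmvk and Fdps encode enzymes of the mevalonate pathway of sterol synthesis, and Mvd was at 12.5 to 17.0 FPKM in ND + oil, 2.49 in ND + CCl4 library 1 and 6.74 to 9.19 in the other 4 libraries.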

How the data were processed

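The values are FPKM per gene, deposited by the authors as 1 table of 55487 genes and 8 libraries. Per the submitters' processing notes the build was GRCm38 and the tools were HISAT2 2.2.1, StringTie 2.1.0, cutadapt 3.7 and FastQC 0.11.9; the role of each, the gene annotation and any strand setting are not given in the sources used here. A stranded mRNA kit was used, per the labels' protocols. No 2 libraries held identical values.

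Genes with at least 1 FPKM in at least 2 libraries (11514) were fitted as log2(FPKM + 1), which understates changes of low genes, with limma 3.58.1 in R 4.3.3: 1 mean per group, all libraries in 1 fit (4 residual and 3.93 prior degrees of freedom), 7 contrasts, two-sided tests, Benjamini-Hochberg adjustment over all tested genes and a threshold of 0.05. The fit was tested on simulated data. Ratios of 2 genes were tested by exact permutation over libraries (SciPy 1.17.1). Sequences came from GENCODE M21 transcripts, aligned with Biopython 1.88, and RefSeq promoters.

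The members and lists were chosen with earlier results of these data known. The text names all members, genes of the short lists, the up to 4 genes per longer list with the smallest p, and the 5 non-members nearest in profile to Cyp4a14 and Cyp4a12a, without predicted genes. Alternatives varied the pseudocount, filter, scaling, variance model, replicate block, libraries in the fit and the summing of copies. Deviations from the group mean in same-numbered libraries had correlations of -0.279 to -0.014. In a group of 2 libraries the deviations mirror each other, so these correlations cannot decide whether libraries were paired. No pairing was used in the main fit.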

Additional observations from a re-analysis of the deposited data

How the results depend on the processing

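All estimates of the 6 members against ND + oil kept their sign under every alternative run, from 3.35 to 4.47 for Cyp4a14 and 2.07 to 3.16 for Cyp4a10 in WD + oil, and from -1.11 to -0.66 for Cyp4a12a. Calls did not. The 3 members called in WD + oil became 2 with a pseudocount of 0.1, median-of-ratios scaling or robust variances, 1 with the replicate number as a block, 0 with no filter, 4 with only the groups compared, and 0 to 4 with 1 library left out. The 4 called in ND + CCl4 became 3 without a variance trend, 2 with a pseudocount of 0.1, without the Mup genes, with robust variances, the replicate block or only the groups compared, 1 with median-of-ratios scaling, 0 with no filter, and 0 to 5 with 1 library left out. Leaving out 1 library gave 0 to 1 in WD + CCl4 and 0 to 1 in the interaction; fitting WD + oil with WD + CCl4 alone gave 1, from 2 libraries against 1, so the spread came from a single pair.

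Under the replicate block Cyp4a14 still passed, at 3.35 in WD + oil and 3.22 in ND + CCl4 (limma adjusted p = 0.0349 and 0.0187). Permuted within replicate number, the ratio differences of 4.59, 3.88, 4.08 and 3.37 had an exact permutation p = 0.167, the smallest that 12 arrangements allow. With 1 library left out they ranged from 4.09 to 5.13, 3.36 to 4.23, 3.59 to 4.63 and 2.87 to 3.68, with designs that cannot reach 0.05.

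Over all genes the 508, 164 and 107 calls against ND + oil ranged over 4 to 1159, 18 to 1165 and 6 to 486, and the 5, 30, 71 and 7 of the other contrasts over 0 to 140, 3 to 109, 1 to 122 and 0 to 168. Median-of-ratios scaling moved the median of all genes from 0.22, 0.26 and 0.19 to -0.0020, 0.00029 and 0.0048. It also moved the share of higher calls from 86.4% to 74.9% in WD + oil and from 72.0% to 40.7% in ND + CCl4, where a common sum per library gave 85.7%.

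Signs changed only in uncalled contrasts among the 3 other groups. For WD + CCl4 against WD + oil, Cyp4a31 became -0.454 and Cyp4a12b 0.241 under the block, Cyp4a12a became -0.00554 without the Mup genes and -0.00561 with copies summed, and Cyp4a12b became 0.0168 with median-of-ratios scaling. With 1 library left out, Cyp4a31 ranged from -0.355 to 0.459, Cyp4a12a from -0.172 to 0.178 and Cyp4a12b from -0.133 to 0.0893. For WD + CCl4 against ND + CCl4, Cyp4a12a ranged from -0.00706 to 1.51. For ND + CCl4 against WD + oil, Cyp4a10 ranged from -0.0636 to 0.856, Cyp4a14 from -0.63 to 0.364, Cyp4a32 from -0.0163 to 0.313 and Cyp4a12a from -1.51 to 0.00982. The cause was not tested.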
